A study of Mus musculus with 5 samples.

Results

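The 10 genes described here encode the core proteins of proteoglycans that are studied in brain tumours: Bcan, Ncan, Vcan, Cspg4, Cspg5, Bgn, Dcn, Gpc1, Sdc1 and Hspg2. They were taken by name from 55499 annotated genes, by a list drawn up with earlier results of these data known. RNA was sequenced from GL261 cells, an established mouse glioma line, collected 24 h after sodium propionate (2 libraries, replicates 2 and 3) or sodium chloride (3 libraries, replicates 1 to 3). Sodium chloride supplies the sodium without the propionate, and the labels give 1 uM for either salt. The study asked which transcripts change after propionate, a short-chain fatty acid that gut bacteria release. Every library comes from this line, and the labels name no genotype and no other agent.

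A proteoglycan is a core protein that carries long sulfated sugar chains, of chondroitin or dermatan sulfate or of heparan sulfate. Brain matrix holds little fibrous collagen. Much of it is hyaluronan bound by the lecticans, a family of chondroitin sulfate proteoglycans to which brevican (Bcan), neurocan (Ncan) and versican (Vcan) belong. NG2 (Cspg4) and neuroglycan C (Cspg5) carry chondroitin sulfate on membrane proteins. Syndecan-1 (Sdc1), glypican-1 (Gpc1) and the basement membrane protein perlecan (Hspg2) carry mainly heparan sulfate, which binds growth factors and presents them to receptors. Biglycan (Bgn) and decorin (Dcn) are small leucine-rich proteoglycans of connective tissue.

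Reads laid over all annotated and assembled transcripts amounted to 6.53 to 7.03 Gb per chloride library, against 6.59 and 6.75 Gb for the propionate pair. Levels are in TPM, a share of all transcripts that allows for transcript length, and 1 TPM stood for 4.73 to 4.99 reads per base. Of 6 markers of the glioma line, 5 reached the tested range and Prom1 was listed at 0 in every library. Transcripts of under 200 bases took 2.45% of TPM in propionate replicate 2 and 1.42% to 1.61% in the other libraries. Nothing in the labels says that libraries of one salt are separate cultures, so each p-value measures the spread between these libraries, which may be technical. In bulk RNA, fewer cells that express a gene and less RNA per cell cannot be told apart.

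Brevican rose 2.02-fold after propionate, and the other tested core genes did not pass the test. Genes with a mean of at least 1 TPM were tested with limma on log2(TPM + 1), a scale that understates the change of low genes, and called at a Benjamini-Hochberg adjusted p under 0.05 over the 13879 genes tested. Of the 10 core genes 6 were tested, with 1 called higher and 0 lower, beside 1.31% of all tested genes called higher and 0.504% called lower (1.82% in either direction). Both propionate libraries lay above all 3 chloride libraries for 3 of the 6 (Bcan, Sdc1 and Cspg4), as they did for 14.8% of all tested genes. Both lay below for 1 of the 6 (Vcan), against 19.7% of all tested genes. The median log2 change of the 6 genes was 0.24, and that of all tested genes was -0.03, with 5 of the 6 and 44.5% of all tested genes above 0. Without propionate replicate 3, 0 core genes were called, and 8 genes in all were called higher and 7 lower. Ncan, Cspg5, Bgn and Dcn stood under the minimum and have no test.

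**Figure D1:**
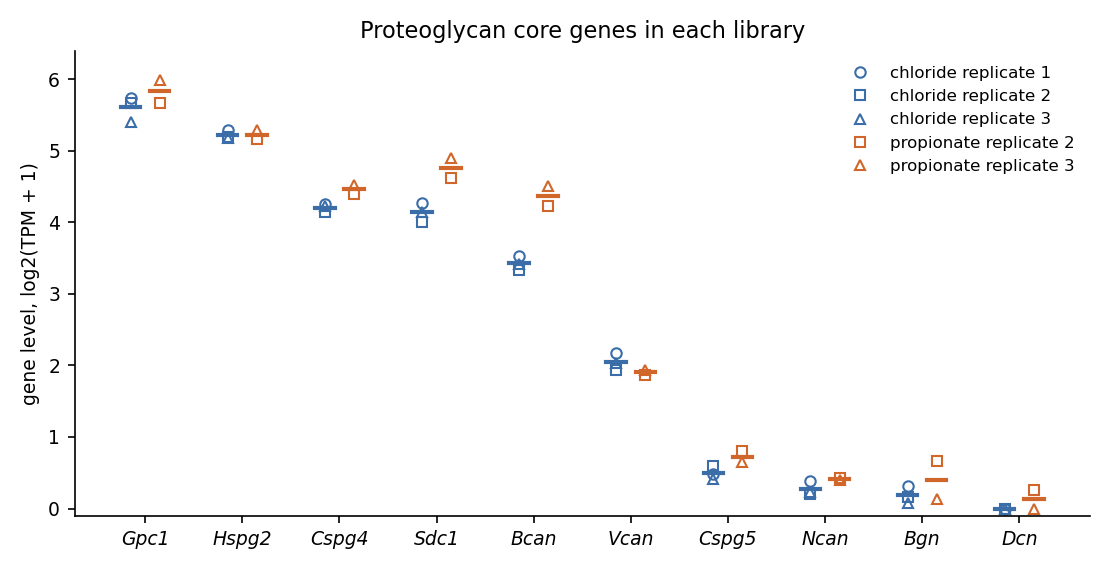
Level of each core gene in each library as log2(TPM + 1), with chloride libraries in blue, propionate libraries in orange, a marker shape for each replicate number and a bar at the mean of each salt. Genes run from the highest to the lowest chloride mean; the propionate points of Bcan and Sdc1 stand clear of their chloride points, while those of Hspg2 and Gpc1 overlap them.

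The core genes differed widely in level before any comparison of the salts. Gpc1 was the highest in chloride at 48.0 ± 5.70 TPM (SD, n = 3), followed by Hspg2 at 36.4 ± 1.55 TPM, and the chloride libraries of this pair did not overlap. Cspg4 (17.5 ± 0.762 TPM) and Sdc1 (16.7 ± 1.66 TPM) overlapped, so they have no order between them. Bcan followed at 9.81 ± 0.728 TPM and Vcan at 3.16 ± 0.348 TPM, each apart from its neighbours. The remaining 4 genes were below 1 TPM in every library. The 10 genes summed to 142, 130 and 125 TPM in the chloride libraries and to 151 and 177 TPM in the propionate libraries. Bcan made up 7.45%, 7.01% and 7.79% of that sum in chloride and 11.8% and 12.3% in propionate, and Sdc1 12.9%, 11.5% and 13.4% in chloride and 15.7% and 16.2% in propionate.

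Brevican is a lectican made mainly in the central nervous system and is abundant in gliomas. Bcan (ENSMUSG00000004892) lies on chromosome 3, 87987531 to 88000230, minus strand (mm10). It stood at 10.6, 9.13 and 9.72 TPM in chloride replicates 1, 2 and 3 and at 17.8 and 21.9 TPM in propionate replicates 2 and 3. The groups did not overlap, and the gap between them was wider than the spread within either. The means were 9.81 ± 0.728 TPM (SD, n = 3) and 19.8 ± 2.90 TPM (SD, n = 2). On the log2 scale the change was 0.94 ± 0.12 (SE, 95% interval 0.66 to 1.22; limma adjusted p = 0.0128). Over 14 alternative settings the adjusted p ranged from 0.00200 to 0.268 and stayed under the threshold in 11. The call was lost without propionate replicate 3 (limma adjusted p = 0.0988), with no minimum level (0.148) and with reference transcripts only (0.268), where the change was 0.88.

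The difference was seen along nearly the whole Bcan transcript. The full-length transcript has 14 exons, and mean coverage was higher in both propionate libraries than in every chloride library for 13 of them. Exon 1, at the 5′ end, was the exception, with 15.9, 7.76 and 6.95 reads per base in chloride and 13.3 and 13.4 in propionate. The last exon, 14, had 58.0, 57.5 and 62.8 reads per base in chloride and 113 and 133 in propionate. The ratio of mean coverage was above 1 in all 14 exons, with a median of 2.05 and a range of 1.31 to 2.68. These exon values were looked at after the gene values were known, and exons of one gene share their transcripts.

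**Figure D2:**
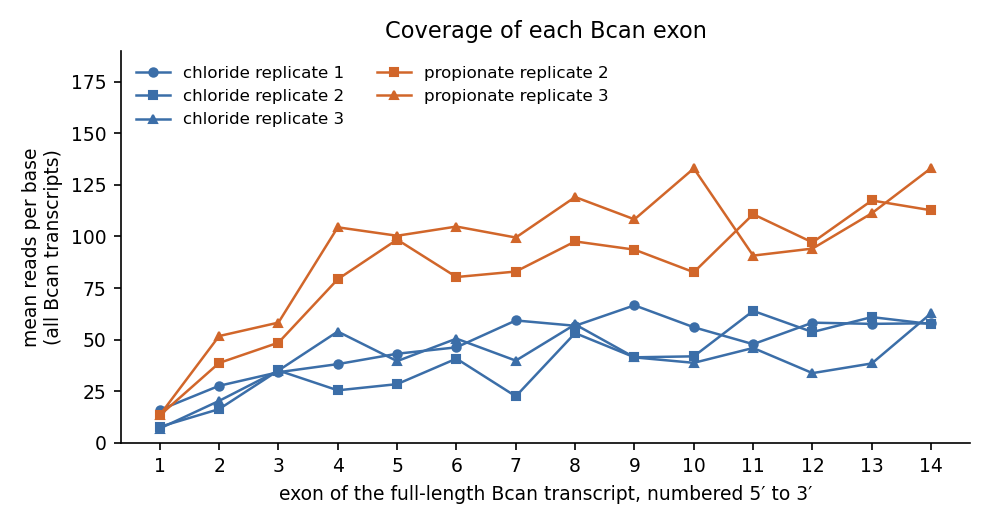
Mean reads per base over each exon of the full-length Bcan transcript, summed over all Bcan transcripts, with 1 line per library (chloride blue, propionate orange). From exon 2 to exon 14 both propionate lines run above all 3 chloride lines, and at exon 1 they overlap.

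Bcan reads were split between a full-length coding transcript and an assembled transcript of 12 exons that keeps an intron. The full-length transcript was given 7.68, 7.41 and 4.36 TPM in chloride and 12.0 and 13.5 TPM in propionate. The assembled transcript was given 2.11, 1.14 and 4.79 TPM in chloride and 4.78 and 7.43 TPM in propionate. Chloride replicate 3 stood apart in this split: the assembled form took 49.3% of its Bcan TPM, against 20.0% and 12.5% in chloride replicates 1 and 2. In a limma fit over 32170 transcripts, chosen after the gene values were seen, neither form passed (change 0.91, adjusted p = 0.589, for the full-length form; change 1.05, adjusted p = 0.745, for the assembled form). That fit called 13 transcripts in all.

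The proximal promoters of Bcan, Sdc1 and Hspg2 are shown because they belong to the core genes with the largest and the smallest changes. Each line gives the 250 bases before the RefSeq start (GRCm38.p6), 5′ to 3′ on the strand of the gene, at chr3:88000357-88000606 (minus), chr12:8771146-8771395 (plus) and chr4:137468553-137468802 (plus). Capitals mark motifs searched on both strands, which did not overlap: the GC box (GGGCGG, on the other strand CCGCCC), the CCAAT box (on the other strand ATTGG), the TATA box (TATAAA, on the other strand TTTATA) and the E-box (CACGTG on either strand).
Bcan: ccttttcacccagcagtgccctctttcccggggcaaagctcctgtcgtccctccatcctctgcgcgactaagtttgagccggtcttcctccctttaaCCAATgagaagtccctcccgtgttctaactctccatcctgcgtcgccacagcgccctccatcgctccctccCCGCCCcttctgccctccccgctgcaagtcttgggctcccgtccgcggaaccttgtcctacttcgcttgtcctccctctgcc
Sdc1: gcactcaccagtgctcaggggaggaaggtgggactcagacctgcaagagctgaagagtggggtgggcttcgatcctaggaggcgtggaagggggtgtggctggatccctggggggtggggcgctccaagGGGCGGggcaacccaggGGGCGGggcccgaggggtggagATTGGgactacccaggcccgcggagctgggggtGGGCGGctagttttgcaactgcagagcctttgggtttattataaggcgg
Hspg2: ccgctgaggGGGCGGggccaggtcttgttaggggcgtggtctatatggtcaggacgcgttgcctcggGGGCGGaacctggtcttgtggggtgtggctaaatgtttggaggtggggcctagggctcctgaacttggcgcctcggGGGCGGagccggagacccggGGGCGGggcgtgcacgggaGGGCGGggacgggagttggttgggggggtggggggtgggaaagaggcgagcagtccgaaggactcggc
The Bcan window held 1 GC box and 1 CCAAT box. The Sdc1 window held 3 GC boxes and 1 CCAAT box, and the Hspg2 window held 5 GC boxes and no CCAAT box. Of all 32851 RefSeq windows of this length, 32.7% held a GC box, 33.9% a CCAAT box, 12.4% a TATA box and 6.02% an E-box, and the 3 windows shown held neither of the last pair. CpG pairs numbered 16 in Bcan, 10 in Sdc1 and 20 in Hspg2. A match describes only the letters in the window. The main transcripts measured here start elsewhere, at 88000230 (Bcan), 8771323 (Sdc1) and 137468779 (Hspg2). The Bcan window ends upstream of that start. The Sdc1 and Hspg2 windows run past it into the transcript. A window was found for 7 of the 10 genes.

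Versican, the large lectican of developing and tumour matrix, did not pass the test. Vcan (ENSMUSG00000021614, chromosome 13, 89655312 to 89742509, minus strand) stood at 3.53, 2.84 and 3.11 TPM in chloride and at 2.65 and 2.83 TPM in propionate. The propionate libraries were the lowest of the 5, with the higher of them just under chloride replicate 2. The change was -0.15 ± 0.15 (95% interval -0.49 to 0.19; limma adjusted p = 0.664), and it passed in 0 of the 13 alternatives that could test it. Without chloride replicate 1 the change was -0.087. Exon coverage did not all run with the gene's TPM: 9 of its 15 exons had a ratio above 1, 3 of them without overlap, and the median exon ratio was 1.25. The bases laid over Vcan overlapped between the groups, at 160, 122 and 130 kb in chloride and 135 and 132 kb in propionate. The lower TPM in propionate was thus not seen in the bases laid over the gene. A pseudogene (Gm16318) and an antisense gene (Gm4117) overlap the locus, and no strand option was set, so reads of these genes cannot be told apart from reads of Vcan.

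Versican carries its chondroitin sulfate on stretches encoded by a pair of large exons that are spliced in or out: exon 7 (alpha; chromosome 13, 89702918 to 89705797, 2880 bases) and exon 8 (beta; 89688285 to 89693501, 5217 bases). The junctions that tell the forms apart are printed on the minus strand (mm10). Each shows 15 bases of the upstream exon in lower case and 15 bases of the downstream exon in capitals. The outermost printed bases lie at chr13:89705783-89712219, chr13:89693487-89702932 and chr13:89693487-89712219.
exon 6 to exon 7: cctactgctttaaacCTAAACAGAATATAT
exon 7 to exon 8: gagaaaacaagacagGTCGATTGAGTGATA
exon 6 to exon 8: cctactgctttaaacGTCGATTGAGTGATA
A transcript with both exons holds the first pair of junctions, and one with exon 8 only holds the last. Coverage of exon 7 was 7.16, 5.87 and 7.11 reads per base in chloride and 8.65 and 8.30 in propionate. Coverage of exon 8 was 17.0, 12.4 and 13.02 reads per base in chloride and 12.3 and 11.7 in propionate. Exon 7 coverage thus came to 42.2%, 47.2% and 54.6% of exon 8 coverage in chloride and to 70.5% and 70.8% in propionate, with no overlap between the groups. Exons upstream of this pair, which both forms share, mostly had a ratio of mean coverage above 1. The ratio was 2.01 and 1.55, without overlap, for exons 5 and 6. Exons 1, 2 and 4 had ratios of 1.27, 1.45 and 1.38, with overlap between the groups, and exon 3 had 0.98. Exon 7 had 1.26 and exon 8 had 0.85. Exons 9 to 15, downstream of the pair, had ratios from 0.80 to 1.39, all with overlap. The exon coverage therefore does not separate a change in splicing from a difference along the transcript.

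StringTie split this coverage between whole Vcan transcripts differently in the salts. Forms with both exons were given 1.07, 0.854 and 0.777 TPM in chloride and 1.89 and 1.503 TPM in propionate. That sum joins a reference form, at 0 TPM in chloride replicate 3, and an assembled form, at 0 TPM in chloride replicate 2. The form with exon 8 only was given 2.23, 1.63 and 1.90 TPM in chloride and 0.352 and 0.995 TPM in propionate. Forms with both exons made up 32.4%, 34.4% and 29.1% of these full-length forms in chloride and 84.3% and 60.2% in propionate. In the fit over all transcripts the form with exon 8 only changed by -0.83 ± 0.30 and did not pass (limma adjusted p = 0.666). This pattern was noticed in the data and rests on low coverage, so it is given as a description, and no test was made of the exon ratio.

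**Figure D3:**
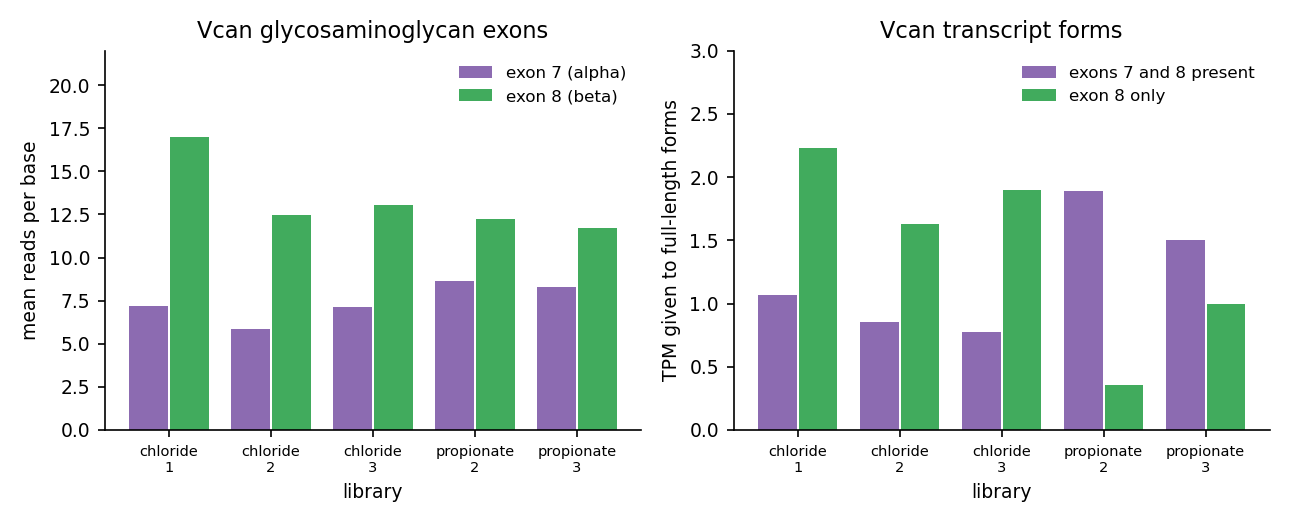
Left, mean reads per base over the alpha (exon 7, purple) and beta (exon 8, green) exons of Vcan in each library; right, TPM given to full-length forms with both exons (purple) and with exon 8 only (green). In the 3 chloride libraries the form with exon 8 only is the larger, and in the 2 propionate libraries the forms with both exons are.

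Neurocan, the third lectican here and mainly a neuronal product, was close to the floor of the data. Ncan (ENSMUSG00000002341, chromosome 8, 70093085 to 70120873, minus strand) was listed at 0.300, 0.148 and 0.177 TPM in chloride and at 0.347 and 0.324 TPM in propionate. Both propionate values were the higher ones. Its mean was under 1 TPM, so there is no test.

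NG2, a membrane proteoglycan of oligodendrocyte precursors, pericytes and many gliomas, was well expressed and did not pass the test. Cspg4 (ENSMUSG00000032911, chromosome 9, 56865033 to 56899870, plus strand) stood at 18.1, 16.6 and 17.8 TPM in chloride and at 20.1 and 22.1 TPM in propionate. The groups did not overlap. The change was 0.26 ± 0.10 (95% interval 0.02 to 0.49; limma adjusted p = 0.253), and it passed in 0 of the 14 alternatives. Coverage was higher in both propionate libraries for 7 of its 10 exons, with a median exon ratio of 1.22. Neuroglycan C, a membrane protein mostly of neurons, was low. Cspg5 (ENSMUSG00000032482, chromosome 9, 110243783 to 110262576, plus strand) was listed at 0.397, 0.505 and 0.331 TPM in chloride and at 0.739 and 0.572 TPM in propionate, without overlap and without a test. A gene on the other strand (Gm43622) overlaps the locus, and without the strand its reads cannot be told apart from those of Cspg5.

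Among the 3 heparan sulfate core genes of the 10, syndecan-1 had the smallest p. It is a transmembrane co-receptor for growth factors and matrix. Sdc1 (ENSMUSG00000020592, chromosome 12, 8771323 to 8793715, plus strand) stood at 18.3, 15.02 and 16.7 TPM in chloride and at 23.6 and 28.7 TPM in propionate, and the groups did not overlap. The means were 16.7 ± 1.66 TPM (SD, n = 3) and 26.2 ± 3.601 TPM (SD, n = 2), a ratio of 1.57. The log2 change was 0.62 ± 0.13 (95% interval 0.33 to 0.91), and the limma adjusted p of 0.0548 missed the threshold. The adjusted p ranged from 0.0252 to 0.218 over the 14 alternatives and was under 0.05 in 5 of them, among them median-of-ratios scaling (0.0252). Coverage was higher in both propionate libraries for 4 of 5 exons, with a median exon ratio of 1.51.

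Glypican-1, anchored to the outer face of the cell membrane by a lipid, was the most abundant of the core genes and did not pass the test. Gpc1 (ENSMUSG00000034220, chromosome 1, 92831645 to 92860779, plus strand) stood at 52.3, 50.1 and 41.5 TPM in chloride and at 49.9 and 62.8 TPM in propionate. Propionate replicate 3 was the highest library, and propionate replicate 2 lay among the chloride libraries. The change was 0.22 ± 0.14 (95% interval -0.09 to 0.54; limma adjusted p = 0.447). It moved with single libraries, to 0.061 without propionate replicate 3, 0.13 without chloride replicate 3 and 0.39 without propionate replicate 2. Coverage was higher in both propionate libraries for 1 of 9 exons, with a median exon ratio of 1.17. Genes on the other strand overlap it (Gm29481, Gm29480 and Ankmy1), and their reads cannot be told apart from its own without the strand.

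Perlecan, a very large basement membrane proteoglycan, showed the smallest change. Hspg2 (ENSMUSG00000028763, chromosome 4, 137468769 to 137570630, plus strand) stood at 38.2, 35.7 and 35.3 TPM in chloride and at 34.8 and 38.2 TPM in propionate. The groups overlapped over nearly their whole range. The change was 0.00 ± 0.10 (95% interval -0.22 to 0.22; limma adjusted p = 0.994), so a rise or fall of up to 0.22 on the log2 scale is within its error. An assembled transcript of 97 exons held 98.8% to 99.6% of its TPM.

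The small leucine-rich proteoglycans, which bind collagen fibrils in connective tissue, were close to absent. Bgn (ENSMUSG00000031375, chromosome X, 73483602 to 73495933, plus strand) was listed at 0.247, 0.121 and 0.0583 TPM in chloride and at 0.588 and 0.1004 TPM in propionate. Its groups overlapped. Dcn (ENSMUSG00000019929, chromosome 10, 97479609 to 97518143, plus strand) was listed at 0 in 4 libraries and at 0.198 TPM in propionate replicate 2. Neither was tested.

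Markers of other cell types were summed beside these results. The fibroblast and pericyte list (6 genes) summed to 3.17 to 4.36 TPM in chloride and 8.88 to 11.1 TPM in propionate, with Lum listed at 0 and Col1a2, Rgs5 and Thy1 under 1 TPM in every library. Col1a1 (3.06 ± 0.467 to 7.77 ± 1.94 TPM) and Pdgfrb (0.763 ± 0.216 to 2.098 ± 0.270 TPM) held nearly all of that sum. Of its 2 tested genes 1 was called higher, Col1a1 (limma adjusted p = 0.0241), which lost its call without chloride replicate 1 or either propionate library (0.0657, 0.0512 and 0.157). The macrophage and microglia list (6 genes) summed to 6.58 to 7.94 TPM in chloride and 10.4 to 12.2 TPM in propionate. Itgam was at 0 and Ptprc, Aif1, Csf1r and Cx3cr1 were under 1 TPM in every library. This sum is in effect the level of Cd68 (6.94 ± 0.686 and 11.1 ± 1.43 TPM). Cd68 missed the threshold (limma adjusted p = 0.0594) and passed in 4 of the 14 alternatives. Csf1r was lower in both propionate libraries, and Ptprc, Aif1 and Cx3cr1 overlapped between the groups. The endothelial list (5 genes) summed to 0.0246 to 0.0902 TPM in chloride and 0.137 to 0.157 TPM in propionate, with Cdh5 and Kdr at 0 and the other genes under 1 TPM. The neuron list (6 genes) summed to 177 to 191 TPM in chloride and 193 to 228 TPM in propionate, with Rbfox3 and Snap25 at 0 and Syt1, Slc17a7 and Gad1 under 1 TPM in every library, so that this sum is in effect the level of Tubb3 (184 ± 7.41 and 209.9 ± 24.8 TPM). The astrocyte list (6 genes) summed to 217 to 231 TPM in chloride and 169 to 192 TPM in propionate, with Aqp4 at 0 and Slc1a2 under 1 TPM. Most of that sum was S100b (202 ± 6.82 and 157 ± 14.3 TPM). Gfap was higher in both propionate libraries (4.52 ± 1.12 and 5.91 ± 0.955 TPM) and Gja1 lower in both (4.74 ± 0.173 and 3.44 ± 0.0996 TPM). Of the 4 tested astrocyte genes 0 were called. These 5 sums did not overlap between the groups, the astrocyte sum being the one that was lower in propionate. Of all tested genes, 14.8% were higher and 19.7% lower in propionate without overlap, and the endothelial sum lay close to the floor.

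The oligodendrocyte lineage list (7 genes) overlapped, at 258 to 307 TPM in chloride and 248 to 290 TPM in propionate. Of its 5 tested genes 1 was called higher, Pdgfra (limma adjusted p = 0.00719), a receptor of precursor cells, which lost its call without propionate replicate 3 (0.0798). The markers with values here are named after their values were seen. The part of these lists in the values of Bcan, Sdc1 and the other core genes was not tested.

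The rest of the proteoglycan pathway was read from lists of other core proteins, chain-building and chain-cutting enzymes, and receptors. Of 136 names 135 were found, 79 genes were tested, and 6 were called higher and 1 lower, beside 1.31% and 0.504% of all tested genes. The median log2 change of the 79 was 0.02, and 42 lay above 0 (53.2%, against 44.5% of all tested genes). Without propionate replicate 3, 0 of the pathway genes were called, and with the other libraries left out in turn 2 to 5. Both propionate libraries lay above all chloride libraries for 21 of them and below for 15 (26.6% and 19.0%, against 14.8% and 19.7% of all tested genes). These shares of all tested genes also stand beside the counts of each list below, and no test was made over a list.

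**Figure D4:**
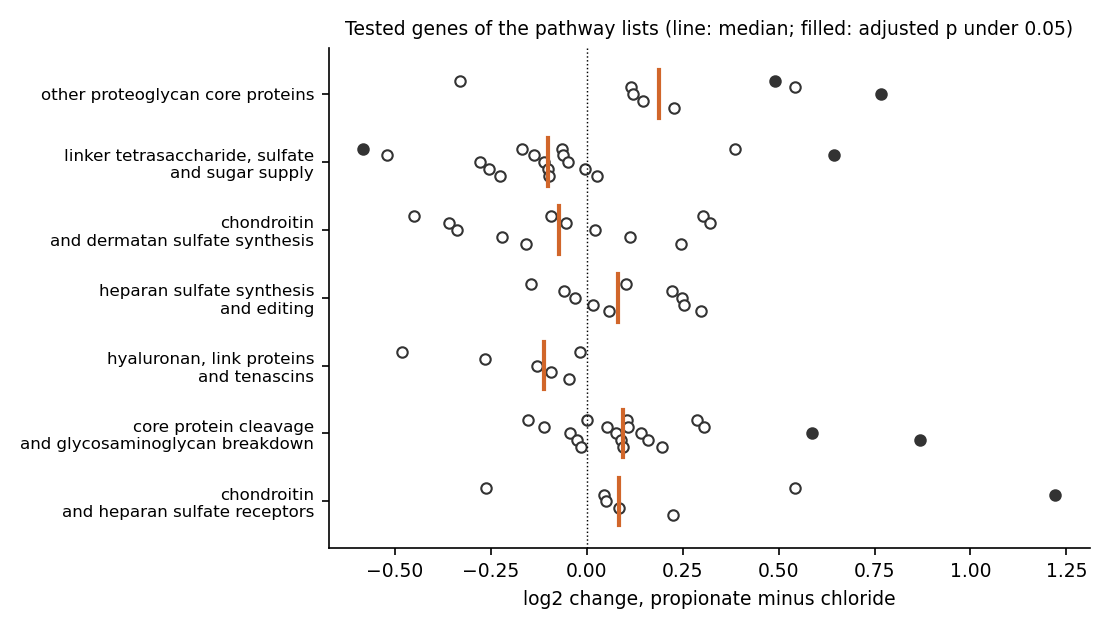
Log2 change (propionate minus chloride) of every tested gene of the 7 pathway lists, 1 circle per gene, filled where the limma adjusted p was under 0.05, with an orange line at the median of each list. The lists of other core proteins and of cleavage and breakdown genes hold 2 filled circles each to the right of 0, the list of linker and sugar supply genes holds 1 on either side, and the list of receptors 1 to the right.

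Among 30 other core proteins 8 were tested, of which 2 rose, 0 fell and 7 had a change above 0 (median 0.19). Col18a1 (chromosome 10, 77052178 to 77166548, minus strand) encodes collagen XVIII, a basement membrane proteoglycan with heparan sulfate. It rose from 34.5, 31.4 and 30.2 TPM in chloride to 51.8 and 58.8 TPM in propionate, a change of 0.77 ± 0.10 (limma adjusted p = 0.0139). The call was lost without propionate replicate 3 (adjusted p = 0.0981; range over 14 alternatives 0.00720 to 0.863). With reference transcripts only the change was 0.29, and no call was made (0.863). Sdc4 (chromosome 2, 164424247 to 164443887, minus strand), a syndecan of focal adhesions, rose from 98.3, 94.6 and 93.9 TPM to 125 and 146 TPM, a change of 0.49 ± 0.10 (limma adjusted p = 0.0464). It lost its call without any one of chloride replicates 1, 2 and 3 and propionate replicate 3 (limma adjusted p = 0.113, 0.145, 0.114 and 0.145; range over 14 alternatives 0.00978 to 0.181).

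Among the 17 genes that build the linker sugars and supply sugar nucleotides and sulfate, all tested, 1 rose, 1 fell and 3 had a change above 0 (median -0.10). The 2 that passed act in turn. Ugp2 (chromosome 11, 21321138 to 21371201, minus strand) makes UDP-glucose, and rose from 254, 224 and 243 TPM to 347 and 406 TPM, a change of 0.64 ± 0.10 (limma adjusted p = 0.0225). Ugdh (chromosome 5, 65413221 to 65435949, minus strand) oxidises UDP-glucose to UDP-glucuronic acid, a building block of both kinds of chain and of hyaluronan. It fell from 105, 95.5 and 93.6 TPM to 62.4 and 68.0 TPM, a change of -0.58 ± 0.09 (limma adjusted p = 0.0262). Ugp2 lost its call without chloride replicate 1 or 2 or propionate replicate 3 (limma adjusted p = 0.0657, 0.0640 and 0.107; range over 14 alternatives 0.00921 to 0.169). Ugdh lost its call without chloride replicate 1 or 2 or either propionate library (limma adjusted p = 0.0868, 0.0703, 0.0870 and 0.0930; range 0.00892 to 0.153).

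Neither kind of chain had a synthesis gene past the threshold. Of 16 genes of chondroitin and dermatan sulfate synthesis 12 were tested, with 0 called and a median change of -0.07. The 2 with the smallest p were Dse, an epimerase that makes dermatan sulfate (25.5 ± 0.634 to 32.1 ± 2.16 TPM; limma adjusted p = 0.141), and Chpf2, a factor of chain elongation (19.2 ± 1.94 to 14.7 ± 1.11 TPM; adjusted p = 0.171). Of 23 genes of heparan sulfate synthesis and editing 10 were tested, with 0 called and a median change of 0.08. The 2 with the smallest p were the sulfotransferase Hs2st1 (17.4 ± 0.318 to 21.6 ± 2.64 TPM; limma adjusted p = 0.214) and the epimerase Glce (8.48 ± 0.642 to 10.3 ± 0.926 TPM; adjusted p = 0.330).

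The genes of hyaluronan, link proteins and tenascins, the partners of the lecticans in brain matrix, had no change above 0 among the 6 tested of 13 found (median -0.11), and 0 were called. With median-of-ratios scaling 1 of the 6 lay above 0. Has2 (chromosome 15, 56665627 to 56694539, minus strand), a hyaluronan synthase, stood at 31.2, 28.7 and 32.6 TPM in chloride and at 21.7 and 21.8 TPM in propionate, without overlap. Its change of -0.48 ± 0.10 missed the threshold (limma adjusted p = 0.0548; range over 14 alternatives 0.0424 to 0.193, under 0.05 in 4). Hyal1, a lysosomal hyaluronidase, had the next smallest p, at 2.095 ± 0.278 and 1.65 ± 0.920 TPM (limma adjusted p = 0.621).

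Of 22 genes that cut core proteins or break down the chains 19 were tested, and 2 rose and 0 fell, with 14 changes above 0 (median 0.10). Hpse (chromosome 5, 100679484 to 100719716, minus strand) encodes heparanase, which cleaves heparan sulfate. It rose from 2.93, 2.56 and 2.57 TPM to 5.21 and 6.28 TPM, a change of 0.87 ± 0.14 (limma adjusted p = 0.0266). Adamts1 (chromosome 16, 85793827 to 85803113, minus strand) encodes a secreted protease that cuts lecticans. It rose from 45.8, 44.2 and 45.0 TPM to 61.5 and 75.4 TPM, a change of 0.59 ± 0.11 (limma adjusted p = 0.0382). Hpse lost its call without chloride replicate 1 or 2 or either propionate library (limma adjusted p = 0.0615, 0.0588, 0.0759 and 0.163; range over 13 alternatives 0.0132 to 0.175). Adamts1 lost its call without any one of the 3 chloride libraries and propionate replicate 3 (limma adjusted p = 0.101, 0.105, 0.0776 and 0.131; range over 14 alternatives 0.0117 to 0.182).

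Of 14 receptors of chondroitin and heparan sulfate 7 were tested, and 1 rose and 0 fell, with 6 changes above 0 (median 0.08). Rtn4rl1 (chromosome 11, 75193783 to 75267769, plus strand), a Nogo receptor relative that binds chondroitin sulfate, stood at 1.87, 1.59 and 1.39 TPM in chloride and at 4.75 and 5.42 TPM in propionate. The ratio of the means was 3.15, and the log2 change was 1.22 ± 0.16 (limma adjusted p = 0.0118). The call was lost without propionate replicate 2 or 3 (limma adjusted p = 0.0619 and 0.111; range over 13 alternatives 0.00150 to 0.153).

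**Figure D5:**
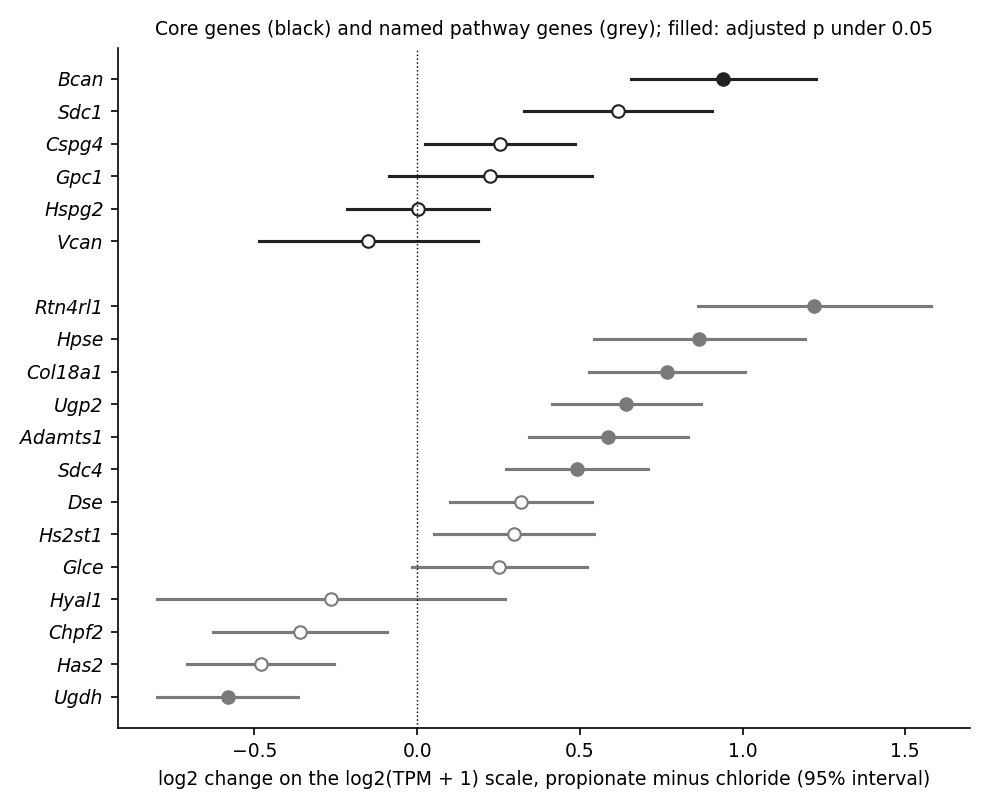
Log2 change, propionate minus chloride, with its 95% interval, for the 6 tested core genes (black) and the named pathway genes (grey), filled where the limma adjusted p was under 0.05. Bcan at 0.94 is the only filled core gene, Sdc1 at 0.62 lies next to it with an open point, and Ugdh at -0.58 is the only filled gene to the left of 0.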

How the data were processed

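Per the labels' protocols, the 5 libraries are TruSeq Stranded Total RNA (Gold) libraries of total RNA. The build (mm10) and the tools bcl2fastq, fastp, HISAT2 and StringTie are listed, without versions, in the submitters' processing notes. Per the file headers, StringTie 2.1.1 gave the deposited TPM, FPKM and coverage values of 157895 transcripts (142480 reference, 15415 assembled) with no strand option; no count is given.

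Gene TPM was the sum of a gene's reference transcripts and of assembled transcripts of its locus and strand that overlap its exons most (12224). Names and coordinates came from GENCODE M21 (GRCm38). A two-sided limma model (version 3.58.1, R 4.3.3; moderated with a trend; group as sole term) was fitted to log2(TPM + 1) of genes with a mean of at least 1 TPM, after the fit was tested on simulated data. Exact tests of 3 against 2 libraries were not used. The 14 alternatives are described in the closing section.

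All core genes are named, with up to 4 called genes per pathway list or, with none called, the 2 with the smallest p. The members and lists were chosen with earlier results of these data known. Tmem2 was not found under that name, and propionate replicate 1 was not analysed here.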

Additional observations from a re-analysis of the deposited data

How the results depend on the processing

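The 14 alternatives were leaving out each of the 5 libraries in turn, the replicate number as a block, reference transcripts only, eBayes without trend, FPKM values, median-of-ratios scaling, TPM over transcripts of at least 200 bases, no minimum, a minimum mean of 5 TPM and a pseudocount of 0.1 TPM. A propionate library left alone is assumed to vary like the others. Of 261 values for 19 named genes, 203 kept their direction and side of the threshold, 45 lost and 9 gained a call, and 4 changed sign: Hspg2 without chloride replicate 2 (-0.01), without chloride replicate 3 (-0.02) and without propionate replicate 3 (-0.062, the lowest, with 0.068 the highest, without propionate replicate 2), and Hyal1 without propionate replicate 2 (0.10, the highest, with -0.63 the lowest). None of these 4 was past the threshold. Among the core genes 1 was called, against 2 (Bcan and Sdc1) with a minimum mean of 5 TPM, FPKM, median-of-ratios scaling, the limit of 200 bases or the replicate block, and 0 with no minimum or reference transcripts only. With 1 library left out the count was 0 (without propionate replicate 3) to 1. Among the pathway genes 7 were called, against 0 with no minimum, 0 with reference transcripts only and 3 without the trend, and 0 (without propionate replicate 3) to 5 with 1 library left out. Over all genes 182 were called higher and 70 lower, against 2 and 1 with no minimum, 5 and 6 with reference transcripts only, and 370 and 157 with median-of-ratios scaling. Lower calls were 118 with FPKM, 108 with the limit of 200 bases and 30 without the trend. With 1 library left out, higher calls ranged from 8 (without propionate replicate 3) to 128 and lower calls from 7 to 47. The cause was not tested, except that a lower minimum adds genes to the adjustment and a left-out library removes a sample. Under the scalings the median of all tested genes moved from -0.03 to -0.01. The replicate block, in which chloride replicate 1 has no partner, gave a change of 0.99 for Bcan (limma adjusted p = 0.00200) and 0.68 for Sdc1 (0.0282), with 266 genes higher and 104 lower and 6 pathway genes called. Under it Sdc4 (0.0844) and Ugdh (0.0749) lost their calls and Gpc6, named for this reason, gained one (0.0324). Deviations from the group means correlated at -0.22 and -0.19 between same-numbered libraries. With 2 propionate libraries these deviations mirror each other, so the check cannot decide whether the numbers pair the samples. Hspg2 had no value with reference transcripts only, nor had Vcan, Hpse, Hyal1 and Rtn4rl1 with a minimum of 5 TPM, since they fell under the minimum. Depth limits the genes under 1 TPM and the exon and transcript values of Vcan, at 5.87 to 17.0 reads per base over its large exons.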
